A study of Mus musculus with 6 samples.

Results

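Glutamine and glutamate handling was examined in mouse liver through 9 genes taken by name, out of 31950 genes measured: Glul, Gls2, Glud1, Oat and Aldh18a1 for the enzymes and Slc1a2, Slc1a5, Slc38a3 and Rhbg for the carriers. RNA was sequenced from 6 livers, 3 from wild-type (WT) mice and 3 from mice of genotype β-cateninΔ(ex3)/+, called mutant here. All mice were C57BL/6 and labelled as 8 weeks old. In the mutant, exon 3 of 1 allele of Ctnnb1, the gene of β-catenin, is removed, which takes away the sites whose phosphorylation leads to degradation of the protein. The study uses this name for livers of tamoxifen-treated mice in which an albumin-driven inducible Cre cuts the floxed allele, a system that acts in hepatocytes. Its methods also describe delivery of Cre by adenovirus, and neither the Cre used for the sequenced mice nor any treatment of the WT mice is stated for the RNA data. The comparison asks how transcript levels differ between mutant and WT livers.

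Glutamine is made from glutamate and ammonia by glutamine synthetase and is split again by glutaminase. In the adult liver these reactions lie in different zones: hepatocytes around the central vein, where β-catenin signalling is active, make glutamine and scavenge ammonia that periportal cells did not turn into urea. Glutamate also links amino acid breakdown, ornithine and proline to the citric acid cycle.

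Levels are FPKM (fragments counted per kilobase of transcript and scaled for the size of the library), so that genes of unequal length can be compared. Fold changes are mutant minus WT on log2(FPKM + 1), which understates the change of low genes, and come from limma with adjustment over 13243 genes tested. A gene past both thresholds had an adjusted p under 0.05 and an absolute log2 fold change of at least 1. Past both, 8.17 percent of all genes tested were higher in the mutant and 4.52 percent lower.

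The libraries differed in more than the labelled genotype. Xist, transcribed from the inactive X chromosome of females, was at 20.3, 22.2 and 21.1 FPKM in the WT livers and at 0.0146, 0 and 0.0128 FPKM in the mutant livers. The Y-linked genes ran the other way, with Ddx3y at 0.0156, 0 and 0 FPKM in WT and 5.85, 5.83 and 5.98 FPKM in mutant livers, and Eif2s3y at 0.0169, 0 and 0 FPKM in WT and 9.94, 9.20 and 9.37 FPKM in mutant livers. Uty was listed at 0 FPKM in WT livers and at 0.750, 0.549 and 0.662 FPKM in mutant livers, and Kdm5d at 0.0104, 0 and 0 and 0.687, 0.693 and 0.557 FPKM. Thus transcripts of a female pattern were found in every WT library and of a male pattern in every mutant library, while the labels state no sex. Sex and genotype cannot be told apart in any result given here. Of genes with male-biased expression in adult liver, 5 of 5 were past both thresholds and higher in the mutant, from Cyp2d9, the most abundant (log2 fold change 1.05), to Slco1a1 (log2 fold change 4.29). Their summed FPKM was 29.7, 30.6 and 26.1 in WT and 81.8, 92.4 and 86.3 in mutant livers. Of 4 female-biased genes tested, 1 was higher and 2 were lower, with Cyp2b13 at log2 fold change -3.03, and Sult3a1 was listed at 0 in each WT liver and at 142, 143 and 141 FPKM in the mutant livers. The FPKM summed over all 5 listed was 47.8, 49.2 and 52.6 in WT and 171, 174 and 173 in mutant livers.

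Genes of the fetal and neonatal liver also separated the groups. Afp, the fetal counterpart of albumin, was at 601, 612 and 610.5 FPKM in WT and 2.48, 2.38 and 2.81 FPKM in mutant livers. The imprinted RNA H19 was at 2320.4, 2374 and 2364 FPKM in WT and 0.0107, 0.0480 and 0.0192 FPKM in mutant livers, and its neighbour Igf2 at 836, 803 and 847 FPKM in WT and listed at 0 in each mutant liver. The 3 WT libraries therefore go against a label of 8 weeks, an age at which these genes are normally low. Gpc3 was at 54.7, 55.9 and 57.4 FPKM in WT and 1.41, 1.80 and 1.55 FPKM in mutant livers, Dlk1 at 1.47, 1.15 and 1.42 and 0.0893, 0.141 and 0.0180 FPKM, and Igf2bp3 at 2.64, 1.91 and 3.27 and 0.00196, 0 and 0 FPKM. All 6 genes of this list were past both thresholds and lower in the mutant, and their summed FPKM was 3816, 3847 and 3884 in WT and 3.98, 4.37 and 4.39 in mutant livers. No library of either group lacks the pattern of its group, so the results cannot be given without these libraries, and stage of development and genotype cannot be told apart either. Ctnnb1 itself was at 25.9, 28.0 and 27.3 FPKM in WT and 25.4, 25.2 and 25.0 FPKM in mutant livers (log2 fold change -0.10, SE 0.042, limma adjusted p = 0.0935), a value for the whole gene that does not show the loss of exon 3.

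Of the 9 genes, 5 were past both thresholds and higher in the mutant, where 8.17 percent of all genes tested were, and 0 were lower, where 4.52 percent were; in either direction the share of all genes tested was 12.7 percent. By limma, 8 of 9 had an adjusted p under 0.05 at any fold change, beside 57.0 percent of all genes tested. The 3 mutant livers did not overlap the 3 WT livers for 8 of 9 genes, beside 66.0 percent of all genes tested. Their median log2 fold change was 1.41, and that of all genes tested 0.14. With 3 livers against 3, the two-sided exact permutation test cannot give a p under 0.1, and it gave 0.1 for each of the 8 genes. Over all genes 1082 were higher and 598 lower, a split of 64.4 percent higher that was 53.1 percent with median-ratio scaling of the libraries (851 and 751) and 49.5 percent with quantile normalization (797 and 812). These scalings shifted the median of that log2 difference over the genes tested by -0.14 and -0.16, and the 5 genes stayed past both thresholds under each of them.

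**Figure D1:**
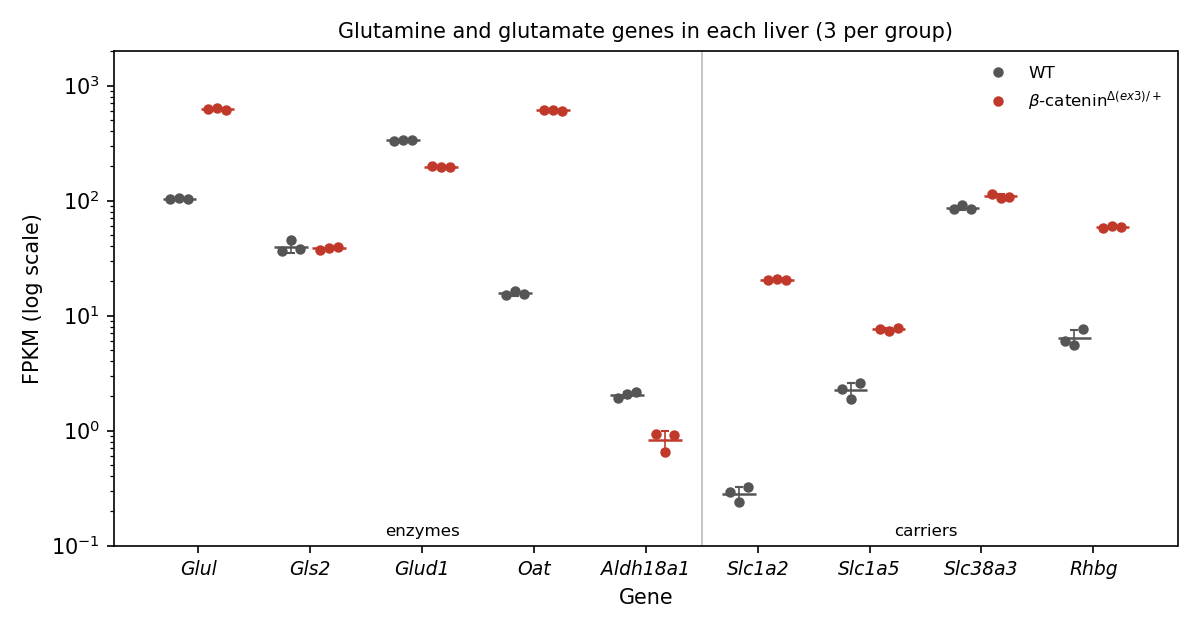
FPKM of the 9 genes in each liver on a log axis, with 3 WT livers in grey and 3 mutant livers in red; points are livers, the horizontal line is the mean and the bar the SD. Only for Gls2 do the groups overlap, and Oat and Slc1a2 show the widest gaps, at 38.8-fold and 72.2-fold between the means.

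Glul (ENSMUSG00000026473; chr1:153899944-153909723, plus strand) encodes glutamine synthetase, which joins ammonia to glutamate. It was at 103, 105 and 102 FPKM in the WT livers and at 626, 633 and 619 FPKM in the mutant livers. Every mutant liver lay above every WT liver, and the spread within a group was small beside the gap. The means were 103 ± 1.25 FPKM in WT and 626 ± 7.13 FPKM in mutant livers (SD, n = 3), a ratio of 6.07 (log2 fold change 2.59, SE 0.026, limma adjusted p = 3.37e-08). In order of FPKM over all genes, Glul moved from place 410 in WT to 80 in mutant livers. A processed pseudogene, Glns-ps1, matches Glul at 96.8 percent identity over 1126 bases and was at 0.248, 0.243 and 0.482 FPKM in WT and 12.0, 8.77 and 9.97 FPKM in mutant livers. How the authors' counting divided fragments between the copies is not stated, so a small part of the Glul level is uncertain. The microRNA gene Mir8114, which overlaps the start of Glul on the same strand, was at 26.5, 24.9 and 24.7 and 282, 349 and 375 FPKM, and its fragments cannot be told apart from those of Glul.

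Gls2 (ENSMUSG00000044005; chr10:128194457-128209942, plus strand) encodes the liver glutaminase, which frees ammonia from glutamine. It was at 36.3, 45.1 and 37.6 FPKM in WT and 36.8, 39.0 and 39.2 FPKM in mutant livers. The mutant values fell inside the range of the WT values, which was widened by WT liver 2. The difference did not pass the test (log2 fold change -0.043, SE 0.086, limma adjusted p = 0.698; exact permutation p = 0.9), and its sign turned to 0.051 without WT liver 2. With median-ratio scaling the log2 fold change was -0.23 (limma adjusted p = 0.0724) and with quantile normalization -0.30 (limma adjusted p = 0.0409), which passed the test though not the fold threshold. Spryd4, on the opposite strand, overlaps the end of Gls2 and was at 31.7 FPKM in WT and 15.6 FPKM in mutant livers, as means.

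The ratio of Glul to Gls2 FPKM was taken within each liver, where a factor applied to the whole library cancels. It was 2.82, 2.32 and 2.72 in WT livers and 17.0, 16.2 and 15.8 in mutant livers. The groups were apart, with a log2 difference of 2.64 (two-sided exact permutation p = 0.1, the smallest possible).

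Glud1 (ENSMUSG00000021794; chr14:34310727-34345265, plus strand) encodes glutamate dehydrogenase, which interconverts glutamate and 2-oxoglutarate with release or uptake of ammonia. Its levels were 329.6, 339 and 337 FPKM in WT and 198, 196 and 195 FPKM in mutant livers. All mutant livers were lower than all WT livers. The WT mean was 1.71 times the mutant mean (log2 fold change -0.77, SE 0.026, limma adjusted p = 3.12e-06), which is short of the fold threshold. The pseudogene Glud-ps, at 97.6 percent identity over 656 bases of Glud1, was at 7.05, 6.77 and 7.82 and 8.80, 5.61 and 7.60 FPKM. In WT livers the Glul level was 0.311, 0.309 and 0.303 times that of Glud1 in FPKM, and in mutant livers 3.16, 3.23 and 3.17 times, so the order of these enzymes was reversed.

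Oat (ENSMUSG00000030934; chr7:132557478-132576398, minus strand) encodes ornithine aminotransferase, the mitochondrial enzyme that turns ornithine into glutamate semialdehyde, a source of glutamate. It was at 15.0, 16.5 and 15.6 FPKM in WT and 615, 609.8 and 601 FPKM in mutant livers. Mutant livers were high without exception, and the WT livers were close together. The means were 15.7 ± 0.752 FPKM in WT and 608 ± 7.03 FPKM in mutant livers (SD, n = 3), a ratio of 38.8 (log2 fold change 5.19, SE 0.041, limma adjusted p = 1.28e-08), and the place of Oat among all genes went from 2007 to 82. The annotated span of Fgfr2, on the same strand, contains Oat, and Fgfr2 was at 2.87 FPKM in WT and 0.876 FPKM in mutant livers, as means.

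Aldh18a1 (ENSMUSG00000025007; chr19:40550257-40588463, minus strand) encodes the synthase that starts the route from glutamate to proline and ornithine. It was low, at 1.91, 2.07 and 2.15 FPKM in WT and 0.938, 0.650 and 0.919 FPKM in mutant livers. Each mutant liver lay below each WT liver. The WT mean was 2.45 times the mutant mean, and the log2 fold change of -0.73 was short of the threshold (SE 0.084, limma adjusted p = 0.000624). With a pseudocount of 0.1 it was -1.21, past both thresholds. It was -1.01, also past both, with FPKM rescaled to an equal sum that was higher than the sum of any liver. That rescaling raised all values before the pseudocount of 1 was added, so the scaling and the weight of the pseudocount changed together. Which of these changes moved the call was not tested. An equal sum has this meaning wherever it is named below. The processed pseudogene Gm15801, on the same strand within the span of Aldh18a1, was at 3.47 FPKM in WT and 4.55 FPKM in mutant livers, as means, above Aldh18a1 in both groups. The ratio of Oat to Aldh18a1 FPKM was 7.84, 7.97 and 7.22 in WT and 655, 939 and 653 in mutant livers.

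Among the carriers, Slc1a2 (ENSMUSG00000005089; chr2:102658659-102790784, plus strand) encodes GLT-1, a high-affinity importer of glutamate. It was at 0.290, 0.237 and 0.321 FPKM in WT and 20.2, 20.6 and 20.4 FPKM in mutant livers. The WT livers were near the bottom of the scale and the mutant livers were well above it. The means were 0.283 ± 0.0424 FPKM in WT and 20.4 ± 0.193 FPKM in mutant livers (SD, n = 3), a ratio of 72.2 (log2 fold change 4.06, SE 0.050, limma adjusted p = 5.79e-08), and its place among all genes went from 14489 to 1957.

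Slc1a5 (ENSMUSG00000001918; chr7:16781340-16798274, plus strand) encodes ASCT2, an exchanger of glutamine and other neutral amino acids. Its levels were 2.29, 1.89 and 2.59 FPKM in WT and 7.71, 7.39 and 7.75 FPKM in mutant livers. Every mutant liver was higher than every WT liver, at a ratio of means of 3.37 (log2 fold change 1.41, SE 0.088, limma adjusted p = 4.33e-05). Slc38a3 (ENSMUSG00000010064; chr9:107650634-107669013, minus strand) encodes SNAT3, which carries glutamine in either direction across the hepatocyte membrane. It was at 85.1, 91.3 and 84.7 FPKM in WT and 115, 106 and 106 FPKM in mutant livers. The groups did not overlap, but the gap was narrow, at a ratio of 1.25 (log2 fold change 0.32, SE 0.049, limma adjusted p = 0.00210). With median-ratio scaling the log2 fold change was 0.13 (limma adjusted p = 0.0718) and with quantile normalization 0.079 (limma adjusted p = 0.194). Whether Slc38a3 passed the test thus rests on the scaling, and it was short of the fold threshold.

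Rhbg (ENSMUSG00000104445; chr3:88242874-88254709, minus strand) encodes an ammonia channel of the Rhesus family. It was at 6.04, 5.59 and 7.63 FPKM in WT and 57.8, 59.6 and 58.6 FPKM in mutant livers. The mutant livers were all higher, at a ratio of 9.14 (log2 fold change 3.02, SE 0.10, limma adjusted p = 3.27e-06). Gm38392, which overlaps Rhbg on the same strand and shares 99.9 percent of 1193 aligned bases with it, was listed at 0 in every liver, so fragments of the 2 gene models cannot be told apart.

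Summed over Slc1a2, Slc1a5 and Slc38a3, the carriers of glutamine and glutamate came to 87.7, 93.4 and 87.6 FPKM in WT and 143, 134 and 135 FPKM in mutant livers. Slc38a3 made up 97.1, 97.7 and 96.7 percent of that sum in WT and 80.4, 79.1 and 79.1 percent in mutant livers. The share of Slc1a2 was 0.330, 0.254 and 0.366 percent and 14.2, 15.4 and 15.1 percent. All 9 genes together held 0.130, 0.136 and 0.133 percent of the FPKM of each WT liver and 0.362, 0.356 and 0.349 percent of each mutant liver.

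In WT livers the levels in FPKM ran from Glud1 through Glul, Slc38a3, Gls2, Oat, Rhbg, Slc1a5 and Aldh18a1 to Slc1a2, and only Slc1a5 and Aldh18a1 overlapped as neighbours in that order. In mutant livers the order was Glul, Oat, Glud1, Slc38a3, Rhbg, Gls2, Slc1a2, Slc1a5 and Aldh18a1, with the livers of each pair of neighbours apart. The genes most like Oat over the 6 livers, by Euclidean distance of gene-centred log2(FPKM + 1), were Gstm3 (distance 0.217), Gdf15 (0.223) and Inf2 (0.250). Those most like Slc1a2 were Irf7 (distance 0.0342), Apol9a (0.0703) and Tuba8 (0.125).

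Promoter sequence is shown for Glul, Oat and Slc1a2, 3 of the genes that were higher in the mutant. RefSeq windows (GRCm38.p6) of 250 bases before to 50 after a gene's start were found for 5 of the 9 genes, namely these 3, Glud1 and Aldh18a1. The core motif of TCF/LEF factors, the DNA-binding partners of β-catenin, was searched as CTTTGAT and, for the other strand, ATCAAAG. It was present in 1225 of 32851 windows (3.73 percent) and, of the 5, in that of Slc1a2, where capitals mark it at base 44, or -207 from the start. That Slc1a2 start lies inside the span of the gene as the table gives it, and which start the livers used was not tested. The windows are chr1:153899679-153899978 (plus strand) for Glul, chr7:132576349-132576648 (minus strand) for Oat and chr2:102706188-102706487 (plus strand) for Slc1a2, each written 5′ to 3′ on the gene's strand.
Glul: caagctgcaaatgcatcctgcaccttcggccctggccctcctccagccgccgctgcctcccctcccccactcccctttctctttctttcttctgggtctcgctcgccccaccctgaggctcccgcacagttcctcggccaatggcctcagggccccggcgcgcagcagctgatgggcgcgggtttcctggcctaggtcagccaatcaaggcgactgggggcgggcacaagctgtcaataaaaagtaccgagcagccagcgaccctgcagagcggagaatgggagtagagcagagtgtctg
Oat: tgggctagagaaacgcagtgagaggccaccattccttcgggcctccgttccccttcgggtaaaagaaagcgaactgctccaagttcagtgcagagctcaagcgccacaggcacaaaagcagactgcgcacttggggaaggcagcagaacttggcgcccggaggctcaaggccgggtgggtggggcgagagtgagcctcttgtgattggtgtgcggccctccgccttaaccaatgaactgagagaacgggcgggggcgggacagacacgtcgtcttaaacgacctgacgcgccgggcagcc
Slc1a2: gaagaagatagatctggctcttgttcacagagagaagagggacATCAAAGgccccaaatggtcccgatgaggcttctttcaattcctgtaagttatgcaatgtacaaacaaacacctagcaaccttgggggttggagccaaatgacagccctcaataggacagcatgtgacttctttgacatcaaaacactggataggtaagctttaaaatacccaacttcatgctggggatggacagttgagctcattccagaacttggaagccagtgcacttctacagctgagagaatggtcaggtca

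Of 72 other genes of glutamine, glutamate and ammonia handling in 7 lists, 53 were tested. The most abundant gene of a list is the one with the highest mean FPKM over all 6 livers. Past both thresholds, 13 of the 53 were higher and 5 lower in the mutant, where 8.17 percent and 4.52 percent of all genes tested were, with a median log2 fold change of 0.17 beside 0.14 for all genes tested.

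**Figure D2:**
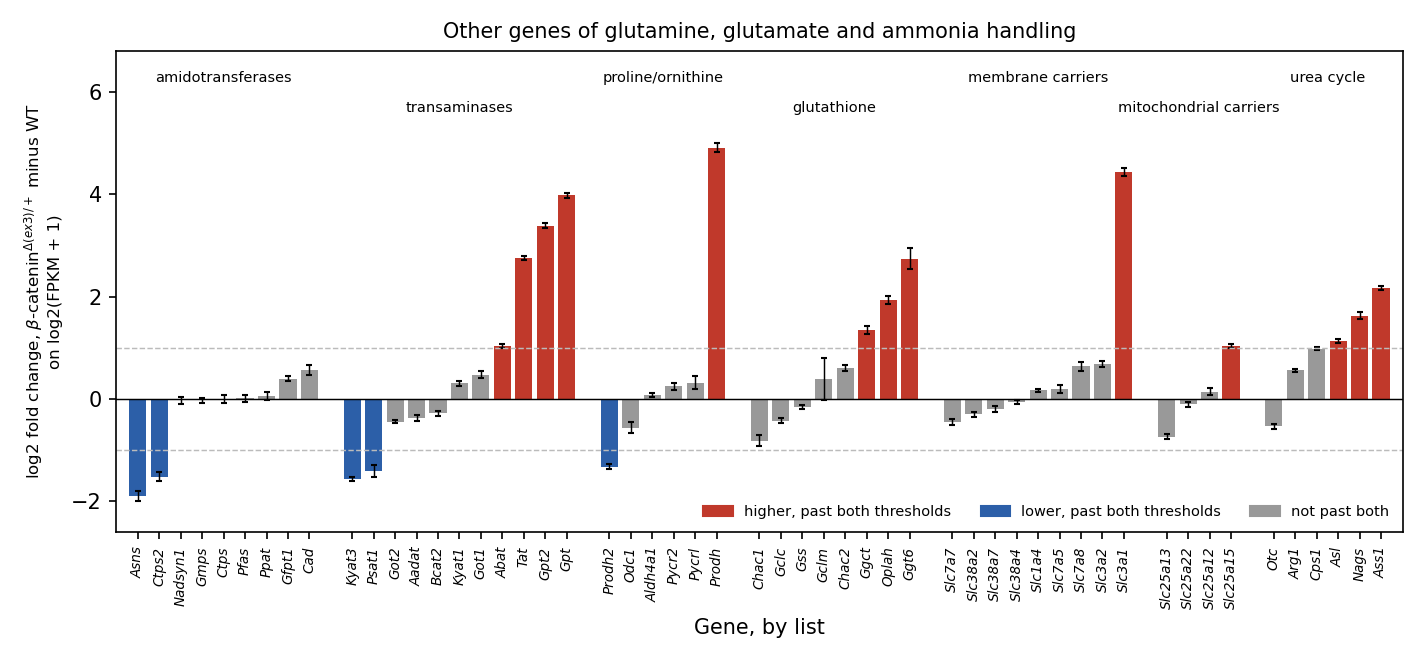
Log2 fold change, mutant minus WT on log2(FPKM + 1), of the 53 pathway genes tested, by list; bars start at 0, error bars are the standard error of the fit, and dashed lines mark the fold threshold. Red bars (13) were higher and blue bars (5) lower past both thresholds, with Prodh, Slc3a1 and Gpt reaching 4.91, 4.43 and 3.98.

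Transaminases move amino groups to or from glutamate, and 4 of 11 tested were higher and 2 lower. Gpt, the alanine transaminase of the cytosol, was at 4.21, 3.996 and 3.85 FPKM in WT and 80.1, 76.8 and 77.7 FPKM in mutant livers (log2 fold change 3.98, SE 0.045, limma adjusted p = 4.43e-08). Its mitochondrial counterpart Gpt2 was at 3.41, 3.76 and 3.36 FPKM in WT and 46.9, 46.4 and 44.9 FPKM in mutant livers (log2 fold change 3.38, SE 0.051, limma adjusted p = 1.20e-07). Tat, which starts tyrosine breakdown and was the most abundant over all 6 livers though not in WT livers alone, was at 46.9, 49.8 and 50.0 FPKM in WT and 337, 329 and 337 FPKM in mutant livers (log2 fold change 2.75, SE 0.036, limma adjusted p = 7.33e-08). In all these genes the mutant livers were above the WT livers. Abat, the transaminase of 4-aminobutyrate, was higher as well (log2 fold change 1.03, SE 0.042, limma adjusted p = 6.87e-06), a call lost with median-ratio scaling (0.85), quantile normalization (0.73) and rescaling to an equal sum (0.99). Kyat3, a kynurenine transaminase, was lower at 38.3, 38.7 and 38.0 FPKM in WT and 12.3, 11.9 and 12.5 FPKM in mutant livers (log2 fold change -1.57, SE 0.037, limma adjusted p = 7.21e-07). Psat1, of serine synthesis, was lower too (log2 fold change -1.41, SE 0.12, limma adjusted p = 0.000188).

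The amidotransferases, which use the amide group of glutamine, held 0 higher and 2 lower of 9 tested. Asns, which makes asparagine and was the most abundant over all 6 livers though not in mutant livers alone, was at 11.9, 10.98 and 12.2 FPKM in WT and 2.82, 2.29 and 2.13 FPKM in mutant livers (log2 fold change -1.90, SE 0.089, limma adjusted p = 1.29e-05). Ctps2, which makes CTP, was at 5.96, 5.52 and 6.82 FPKM in WT and 1.35, 1.62 and 1.42 FPKM in mutant livers (log2 fold change -1.52, SE 0.087, limma adjusted p = 2.93e-05). Both genes were lower in every mutant liver.

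Of the proline and ornithine route, 1 of 6 tested was higher and 1 lower. Prodh, which begins proline breakdown toward glutamate, was at 0.385, 0.294 and 0.461 FPKM in WT and 44.7, 39.5 and 37.2 FPKM in mutant livers (log2 fold change 4.91, SE 0.085, limma adjusted p = 2.02e-07). Prodh2, which acts on hydroxyproline and was the most abundant over all 6 livers though not in mutant livers alone, was at 159, 147 and 161 FPKM in WT and 61.0, 60.8 and 62.7 FPKM in mutant livers (log2 fold change -1.32, SE 0.043, limma adjusted p = 2.71e-06). These related genes thus moved in opposite directions, with no overlap between groups in either.

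Of the genes that build glutathione or release glutamate from it, 3 of 8 tested were higher and 0 lower. Ggt6 was at 0.257, 0.197 and 0.448 FPKM in WT and 10.9, 6.18 and 6.57 FPKM in mutant livers (log2 fold change 2.74, SE 0.21, limma adjusted p = 9.95e-05). Oplah, which turns 5-oxoproline into glutamate, was higher (log2 fold change 1.93, SE 0.076, limma adjusted p = 6.26e-06), as was Ggct, which forms 5-oxoproline (log2 fold change 1.34, SE 0.085, limma adjusted p = 4.62e-05). Gclc, the catalytic subunit for the first step of glutathione synthesis and the most abundant of the list, was lower but short of the fold threshold (log2 fold change -0.42, SE 0.045, limma adjusted p = 0.000440). Gclm, its modifier subunit, was at 21.1, 20.2 and 6.70 FPKM in WT and 18.0, 19.3 and 19.9 FPKM in mutant livers, so that WT liver 3 stood below all others, and the test was not passed (log2 fold change 0.39, SE 0.41, limma adjusted p = 0.456). Chac1, which breaks glutathione down, was short of the fold threshold (log2 fold change -0.82, SE 0.11, limma adjusted p = 0.00125). It was past that threshold with a pseudocount of 0.1 (-1.37) and with rescaling to an equal sum (-1.13), which also lowered the weight of the pseudocount.

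Of the other plasma membrane carriers, 1 of 9 tested was higher and 0 lower. Slc3a1, the partner subunit of a cystine and basic amino acid carrier, was at 0.897, 0.863 and 1.16 FPKM in WT and 42.4, 42.8 and 39.4 FPKM in mutant livers (log2 fold change 4.43, SE 0.074, limma adjusted p = 1.76e-07). The most abundant, Slc38a4, was at 96.1, 99.8 and 96.4 FPKM in WT and 92.7, 93.5 and 94.0 FPKM in mutant livers and did not pass the test (log2 fold change -0.061, SE 0.030, limma adjusted p = 0.136). Among 4 mitochondrial carriers tested 1 was higher, the ornithine carrier Slc25a15 (log2 fold change 1.04, SE 0.036, limma adjusted p = 3.79e-06), also the most abundant over all 6 livers though not in WT livers alone. That call was lost with median-ratio scaling (0.85), quantile normalization (0.77) and rescaling to an equal sum (0.99). Slc25a13, an aspartate and glutamate carrier, was short of the fold threshold (log2 fold change -0.73, SE 0.039, limma adjusted p = 2.23e-05) and past it with quantile normalization (-1.01).

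In the urea cycle and ammonia channel list, 3 of 6 tested were higher and 0 lower. Ass1, which makes argininosuccinate and was the most abundant, was at 173, 168 and 179 FPKM in WT and 803, 804 and 747 FPKM in mutant livers (log2 fold change 2.17, SE 0.042, limma adjusted p = 2.96e-07). Nags, which makes the activator of the cycle's entry enzyme, was at 12.8, 11.2 and 13.3 FPKM in WT and 39.6, 40.8 and 40.7 FPKM in mutant livers (log2 fold change 1.63, SE 0.066, limma adjusted p = 6.86e-06). Both were higher in every mutant liver. Asl, the next enzyme after Ass1, was higher (log2 fold change 1.13, SE 0.043, limma adjusted p = 5.14e-06), a call lost with median-ratio scaling (0.94) and quantile normalization (0.85). Cps1, the entry enzyme, was just short of the fold threshold (log2 fold change 0.98, SE 0.034, limma adjusted p = 3.37e-06) and past it without WT liver 2 (1.01). The channel Rhag was at 0.386, 0.241 and 0.422 FPKM in WT and listed at 0 in the mutant livers, and Rhcg was listed at 0 in all 6.

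Markers of cell types differed between the groups as well, and genotype, sex and stage of development cannot be told apart in these differences. Fewer cells of a type and less RNA per cell cannot be told apart in bulk liver either. The counts of all cell-type lists below are past both thresholds, where 8.17 percent of all genes tested were higher and 4.52 percent lower. In a list of a few genes, 0 or 1 call is near these shares. Of 13 pericentral genes 7 were higher and 1 lower, with summed FPKM of 2109.9, 1919 and 2129 in WT and 2383, 2380.2 and 2350.2 in mutant livers; the most abundant, Cyp2e1, had log2 fold change -0.23, and the extremes were Cyp1a2 (log2 fold change 2.47) and Slc13a3 (log2 fold change -1.39). Of 10 periportal genes 4 were higher and 3 lower, with summed FPKM of 914, 904 and 927 in WT and 679, 670.3 and 681 in mutant livers; the most abundant was Pck1 (log2 fold change -1.45) and the extremes were Cyp2f2 (log2 fold change 3.60) and Aldh1b1 (-1.45). Neither zone's list therefore moved in a single direction. Of 7 general hepatocyte genes 1 was higher, Hnf4a (log2 fold change 1.10, limma adjusted p = 1.24e-06), and 2 were lower. The FPKM summed over the 7 was 72692, 73329 and 70062 in WT and 34686, 34938 and 34721 in mutant livers. Alb was the most abundant (log2 fold change -0.74) and Apoa1 the lowest (log2 fold change -2.01). Apob had the highest log2 fold change (1.27) but did not pass the test (limma adjusted p = 0.0625). Apob was at 149, 45.4 and 43.3 FPKM in the mutant livers, so mutant liver 1 stood apart.

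Of 6 Kupffer cell genes 3 were higher and 1 lower, with summed FPKM of 193, 196 and 198 in WT and 458, 452 and 447 in mutant livers, from Marco (log2 fold change -1.36) to the most abundant, Cd5l (log2 fold change 1.81). Of 9 erythroid genes tested 0 were higher and 6 lower, with FPKM summed over all 10 listed of 3625, 3328 and 3669 in WT and 1880.5, 1842 and 1816 in mutant livers, the most abundant over all 6 livers being Hba-a2 (log2 fold change -0.71), though not in WT livers alone, and the extremes Slc4a1 (log2 fold change -1.90) and Klf1 (log2 fold change -0.35). Of 6 stellate cell genes 0 were higher and 3 lower, with summed FPKM of 53.7, 55.4 and 55.7 in WT and 21.1, 20.6 and 23.1 in mutant livers, from Reln (log2 fold change -2.27) to Des (log2 fold change -0.46), with Dcn the most abundant (log2 fold change -0.94). The erythroid and stellate lists thus held lower calls and no higher ones, and the Kupffer cell list held calls in both directions. Of 5 endothelial genes 1 was lower, with summed FPKM of 59.0, 59.8 and 59.5 in WT and 41.5, 40.5 and 42.6 in mutant livers, from Stab2 (log2 fold change -1.10) to the most abundant, Clec4g (log2 fold change -0.14). Of 4 cholangiocyte genes tested 1 was lower, with FPKM summed over all 6 listed of 43.1, 41.6 and 39.6 in WT and 19.1, 18.5 and 19.3 in mutant livers, from the most abundant, Spp1 (log2 fold change -1.21), to Sox9 (log2 fold change 0.24). Of 3 lymphoid genes tested 2 were lower, with FPKM summed over all 5 listed of 15.4, 16.8 and 16.8 in WT and 6.48, 7.84 and 7.04 in mutant livers, from Cd79a (log2 fold change -2.20), the most abundant over all 6 livers though not in mutant livers alone, to Nkg7 (log2 fold change 0.57). No defining marker of these cell types was listed at 0 in all livers, and the part of any cell type in the levels of the 9 genes was not tested.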

How the data were processed

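Livers of 3 WT and 3 mutant mice were grouped by their labelled genotype. RNA extracted with Trizol was selected with oligo(dT), made into strand-marked libraries with dUTP and sequenced in pairs on an Illumina NovaSeq. The table holds FPKM values per gene as the authors deposited them; the submitters' processing notes name cutadapt 1.9, HISAT2 2.0.4, StringTie 1.3.4d, DESeq2 and edgeR without their roles, and the genome build is not given in the sources used here. Of the 31950 genes, 28911 (90.5 percent) start and end as in GENCODE M21 (GRCm38), which was used for overlaps. Whether counting used the strand is not stated.

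Values were tested with limma 3.58.1 in R 4.3.3 (lmFit and eBayes with a trend) on log2(FPKM + 1) for 13243 genes whose mean FPKM reached 0.5, with Benjamini-Hochberg adjustment over all of them and group as the only term. limma took the place of the study's count test because the values are FPKM and not counts. The fit was tested on simulated data. Single values were compared by two-sided exact permutation in scipy 1.17.1. Other software was Python 3.11.15, pandas 2.3.3, numpy 2.4.6 and matplotlib 3.10.9.

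Depth was estimated from the steps of low FPKM values in 8644 genes with 1 transcript of 1 exon, as the depth at which most values fall within 0.02 of a whole fragment. It was 24.8, 24.6 and 24.4 M fragments for the WT livers and 38.3, 34.0 and 39.1 M for the mutant livers, with 25.3 to 29.5 percent of values on a step where 4.0 percent would be by chance. Whole steps at a depth are also whole at double that depth, and for the mutant livers 19.1, 17.0 and 19.6 M kept 86.0 to 90.8 percent of the share, against 44.9 to 52.6 percent for halved WT depths. The halved values were added after the scan had been seen and with an earlier estimate for these libraries known, so mutant depth is uncertain by a factor of 2, and no test uses it. The squared difference between replicates, over genes with at least 200 estimated fragments, was 1.85 to 4.02 times counting noise in WT and 4.26 to 4.28 times in mutant livers, or 2.20 to 2.29 times at the halved depths. No pair differed by less than counting noise at either depth, and all 6 libraries were kept; this does not show that they came from separate animals. The study gives 3 livers per group. The limma p-values measure the spread between the 3 libraries of a group, with each gene's variance moderated across genes. Whether that is a spread between animals was not tested. It was small: over 1854 genes with a minimum mean of 20 FPKM, the median SD was 4.50 percent of the mean in WT and 3.31 percent in mutant libraries.

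Genes named are the 9 members, in each pathway list those past both thresholds (up to 4 of the largest changes in each direction) and the most abundant, in each marker list the most abundant and the largest and smallest log2 fold change, the sex-linked and fetal lists in full, and the 3 nearest genes of Oat and Slc1a2. Gclm, Chac1, Slc25a13, Rhag, Rhcg, Cps1, Hnf4a, Ctnnb1 and the genes overlapping or resembling members were added for their role or after their values were seen. The members and lists were chosen with earlier results of these data known. Pycr3 is in the table under its older symbol Pycrl and was counted once. Tf was not matched by that symbol, and its mouse symbol Trf was not used here. Alternatives were pseudocount, filter, scaling, eBayes without trend, a replicate block, leaving out each liver and other fold thresholds. 1 gene of the pathway lists is not reported here, and ChIP-seq data of the study were not analysed here.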

Additional observations from a re-analysis of the deposited data

How the results depend on the processing

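Of 230 alternative values, 214 had the same sign and the same outcome of the test or, for counts, were within 1.5 times of the reported count. For the Glul to Gls2 ratio only the sign was compared, and its value with the replicate block could not differ. Higher and lower genes numbered 1706 and 999 with a pseudocount of 0.1, 521 and 238 at an absolute log2 fold change of at least 1.5, and 4952 and 2599 with no fold threshold. Of the 9 genes, 1 was lower with a pseudocount of 0.1 and 1 with FPKM rescaled to an equal sum, in both cases Aldh18a1. That rescaling also lowered the weight of the pseudocount, so it did not vary the scaling alone. With no fold threshold 6 of the 9 genes were higher and 2 lower, and 24 of the 53 pathway genes tested were higher and 17 lower. Beside these stand 4952 higher and 2599 lower of all 13243 genes tested, or 57.0 percent in either direction. At 1.5, 9 of the 53 pathway genes were higher and 3 lower, beside 521 and 238 of all genes tested. Gls2 changed sign to 0.051 without WT liver 2, and its log2 fold change ranged from -0.10 to 0.051 over the livers left out; with quantile normalization it was -0.30 (limma adjusted p = 0.0409, range over its alternatives 0.0409 to 0.914). Slc38a3, short of the fold threshold throughout, no longer had an adjusted p under 0.05 with median-ratio scaling and quantile normalization. The cause of these changes was not tested. The replicate numbers did not pair the livers, since same-numbered livers correlated at 0.0268, 0.0213 and -0.0054, so that not every liver correlated best with its own number. With the replicate block 1075 genes were higher and 598 lower, and 5 of the 9 genes were higher and 0 lower. With equal numbers per group the block can change the spread and the adjusted p, but not a log2 fold change. The Glul to Gls2 log2 difference of 2.64 was likewise fixed in advance under the block. Counts of low genes such as Slc1a2 in WT livers are limited by depth, which is known only as an estimate.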
